A study of Mus musculus with 18 samples.

Results

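The genes described are 31 genes of cholesterol and fatty acid synthesis, taken by symbol from the 24369 genes in the deposited expression table of mouse embryonic stem cells (mESCs). They comprise 7 enzymes of the mevalonate part of sterol synthesis, 11 enzymes that turn its product into cholesterol, 4 regulators and carriers, and 9 enzymes of fatty acid synthesis. RNA-seq was made from wild-type mESCs on days 0, 1, 2 and 3 of differentiation (3 libraries a day, 12 in all) and from GFP+ sorted mESCs that were wild-type or carried a KO of *Nprl2* or of *Tsc2* (2 libraries a genotype, 6 in all). The first set asks how expression moves as naive pluripotency is left, and the second how it depends on 2 negative regulators of the kinase complex mTORC1. All 31 genes were measured in all 18 libraries and passed the filter on low counts in both sets.

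All cells derive from 1 E14 line in which a short-lived GFP reports *Rex1* (listed as *Zfp42*, a gene of naive pluripotency) and which carries *Cas9* in the *Rosa26* locus, the controls included. *Nprl2* encodes a subunit of Gator1 and *Tsc2* a subunit of the Tsc complex, and each KO was a line grown from a picked colony after deletion of an exon with a pair of guide RNAs. The GFP+ libraries were made from cells sorted for reporter expression, a gate set against cells that had already lost *Rex1*. The purity of the sorted cells was not measured here, and markers of feeder fibroblasts summed to between 112 and 159 TPM in the wild-type GFP+ libraries. The line is kept on mitotically inactive mouse embryonic fibroblasts in serum with LIF, and differentiation takes place in NDiff227 without LIF or inhibitors. The culture medium of the day 0 libraries and the way the time-course libraries were made are not given in the sources used here, so day and medium cannot be told apart. The labels do not say whether libraries of 1 group came from separate cultures or clones, and p-values therefore measure the spread between these libraries, which may be technical. In bulk RNA, fewer cells with a transcript and less of it per cell cannot be told apart.

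Cells make cholesterol and fatty acids from cytosolic acetyl-CoA. In the mevalonate part, acetyl-CoA is condensed and reduced to mevalonate and built up to farnesyl diphosphate, which squalene synthase joins to squalene and the later enzymes close and trim to cholesterol. In the other branch, acetyl-CoA carboxylase makes malonyl-CoA, fatty acid synthase builds palmitate, and elongases and desaturases lengthen and unsaturate it. Most of these genes share a control: when sterols are low, the membrane-bound factors SREBP1 (gene *Srebf1*) and SREBP2 (*Srebf2*) are carried to the Golgi, cut and sent to the nucleus, Insig1 retains them when sterols are sufficient, and mTORC1 activity is known to favour their action.

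The promoters were searched for short motifs linked to this control. The RefSeq promoter table (GRCm38.p6, 250 bases before to 50 after each annotated start) held entries for 24 of the 31 genes, 29 promoters in all, and none for *Sqle*, *Scd2*, *Fdps*, *Scd1*, *Fads1*, *Fdft1* and *Stard4*. Both strands were searched for 3 motifs: TCACNCCAC (the classical sterol regulatory element), CACGTG (an E-box, which SREBP1 can also bind) and CCAAT (the site of NF-Y, a partner of SREBPs). The sequences below run 5′ to 3′ on the strand of the gene, with every match to one of the motifs, or to its reverse complement, in capitals. *Hmgcs1* is shown because it is the only one of the 24 with the first motif, *Insig1* as a regulator with the E-box, *Fasn* as the gene with the largest fall in *Tsc2* KO mESCs, and *Ebp* as an enzyme whose transcript fell during differentiation. They lie at chr13:119690101-119690400 (plus strand), chr5:28071162-28071461 (plus), chr11:120824498-120824797 (minus) and chrX:8193463-8193762 (minus), and each ends 50 bases past the annotated start.
Hmgcs1: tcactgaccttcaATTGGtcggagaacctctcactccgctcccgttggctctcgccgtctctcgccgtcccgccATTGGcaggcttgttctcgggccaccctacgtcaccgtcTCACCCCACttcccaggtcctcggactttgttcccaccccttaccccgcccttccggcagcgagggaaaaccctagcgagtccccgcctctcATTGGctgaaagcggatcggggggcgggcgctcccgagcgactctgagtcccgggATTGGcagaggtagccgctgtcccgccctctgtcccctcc
Insig1: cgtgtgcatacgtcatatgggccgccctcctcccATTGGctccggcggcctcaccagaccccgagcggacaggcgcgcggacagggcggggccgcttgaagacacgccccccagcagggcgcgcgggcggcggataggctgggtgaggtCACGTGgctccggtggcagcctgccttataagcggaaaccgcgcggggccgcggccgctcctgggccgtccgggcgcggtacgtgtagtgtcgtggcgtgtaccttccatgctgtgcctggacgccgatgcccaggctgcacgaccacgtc
Fasn: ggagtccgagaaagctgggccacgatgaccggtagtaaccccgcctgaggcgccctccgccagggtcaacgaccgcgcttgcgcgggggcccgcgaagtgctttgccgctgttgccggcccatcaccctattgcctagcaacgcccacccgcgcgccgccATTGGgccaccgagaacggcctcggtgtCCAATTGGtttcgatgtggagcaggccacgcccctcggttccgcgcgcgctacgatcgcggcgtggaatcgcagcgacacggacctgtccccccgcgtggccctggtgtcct
Ebp: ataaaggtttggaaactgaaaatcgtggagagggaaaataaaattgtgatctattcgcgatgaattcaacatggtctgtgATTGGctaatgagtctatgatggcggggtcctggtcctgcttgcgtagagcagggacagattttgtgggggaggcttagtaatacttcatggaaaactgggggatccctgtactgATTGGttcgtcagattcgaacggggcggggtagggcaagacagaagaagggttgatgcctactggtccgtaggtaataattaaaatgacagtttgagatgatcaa
CCAAT was found in 20 of the 24 genes (83.3%), against 41.1% of all 27025 genes in the table and 43.4% of the 11354 that were also tested in the time course. It was missing from *Acaca*, *Acat2*, *Elovl6* and *Fads2*. Counted by promoter, 21 of 29 (72.4%) held it, against 37.4% of 32851. *Hmgcs1* held 4 copies, *Ebp* 2 and *Fasn* 3, of which 2 overlap in a palindrome. CACGTG was found in *Dhcr7*, *Hsd17b7*, *Insig1* and *Sc5d* (4 of 24, 16.7%), against 8.09% of all genes and 11.6% of those tested. TCACNCCAC was found in *Hmgcs1*, with its first base 137 bases before the start, which is 4.17% of the 24 genes, against 1.44% of all genes and 1.44% of those tested. These are matches of letters in a window and no measure of binding. *Ebp*, which fell, and *Hmgcs1*, which rose, both hold CCAAT, and *Fads2*, which rose most, holds none of the 3 motifs.

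The sum of TPM (the authors' level per gene, scaled for transcript length and for the total of each library, and not between libraries) over the 31 genes rose with each day. It was 2668, 2787 and 2506 TPM in the libraries of day 0, 3539, 3647 and 3362 TPM on day 1, 4372, 4411 and 4548 TPM on day 2, and 5125, 4879 and 4920 TPM on day 3. No library of a later day fell into the range of an earlier day. The mean was 2654 ± 141 TPM on day 0 and 4975 ± 132 TPM on day 3 (SD, n = 3 each). In GFP+ cells the sum did not separate the genotypes. It was 2886 and 2552 TPM in wild-type, 2790 and 2621 TPM in *Nprl2* KO, and 2671 and 2782 TPM in *Tsc2* KO, and the KO libraries lay within the range of the 2 wild-type libraries.

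**Figure D1:**
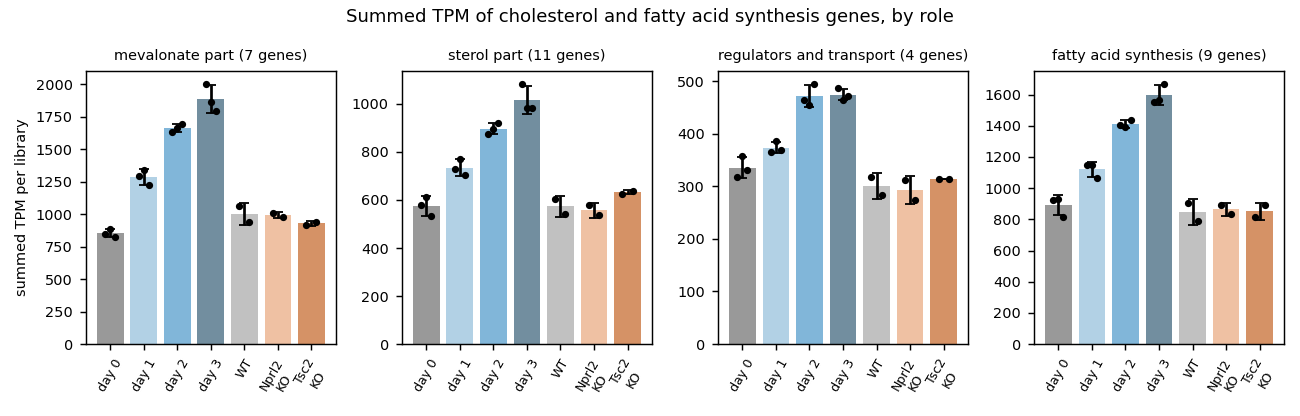
Summed TPM per library (vertical axis, starting at 0) for the 4 roles, by group on the horizontal axis (WT is wild-type GFP+). Dots are libraries, bars are means and whiskers are SDs (n = 3 a day, n = 2 a genotype). The mevalonate part rises from a mean of 854 TPM on day 0 to 1887 TPM on day 3, and in fatty acid synthesis the 3 GFP+ genotypes lie close together, at means between 846 and 865 TPM.

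Day 3 was first set against day 0. By edgeR's quasi-likelihood test on counts, with Benjamini-Hochberg adjustment over all 14382 genes tested and a threshold of 0.05, 28 of the 31 genes were higher on day 3, where 35.0% of all genes tested were higher. *Ebp* and *Acss2* were lower, where 35.9% of all genes were lower, and *Acly* did not pass (log2 change 0.10 ± 0.06, adjusted p = 0.122, where ± gives the SE of a log2 fold change here and in what follows). *Acly* passed in 2 of 7 other settings (adjusted p from 0.00388 to 0.167 over them) and in 0 of 12 fits that left out 1 library. The median log2 fold change of the 31 genes was 0.79, beside -0.01 over all genes tested. All 7 mevalonate enzymes, 10 of 11 sterol enzymes, the 4 regulators and carriers and 7 of 9 fatty acid genes were higher. The highest mean level was on day 3 for 23 genes, and the lowest on day 0 for 23. The call of *Elovl6* (log2 change 0.13 ± 0.06, adjusted p = 0.0468) was lost with no filter on low counts, with the library number as a block, and in 9 of 12 fits that left out 1 library, with adjusted p up to 0.193 (without day 3 library 3). Those of *Srebf1* and *Tm7sf2* were each lost once, at adjusted p = 0.0964 without day 0 library 1 and 0.0533 without day 3 library 1.

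The rise was spread over the days. From day 0 to day 1, 21 genes were higher and 4 lower, where 30.1% of all genes were higher and 30.8% lower, and the median log2 fold change was 0.32 (all genes, 0.00). From day 1 to day 2, 16 were higher and 4 lower (all genes, 32.5% higher and 29.6% lower), with a median of 0.29 (all genes, 0.02). From day 2 to day 3, 13 were higher and 1 lower (all genes, 15.9% higher and 15.6% lower), with a median of 0.18 (all genes, -0.01). Neighbouring steps share the libraries of the day between them, so their values are set side by side and not related to each other. *Hmgcs1* and *Fads2* were higher at all 3 steps, and the last of these was lost in 3 and 4 fits, respectively, that left out 1 library (adjusted p up to 0.122 for *Hmgcs1*, without day 3 library 1, and 0.10 for *Fads2*, without day 2 library 2). With limma on log2(TPM + 1), which moved the median of all genes from day 1 to day 2 by 0.11, 21 genes were higher and 1 lower at that step. The count at the last step changed with the libraries used: 6 genes were higher without day 2 library 1, 7 without day 2 library 2 and 5 without day 3 library 1. *Pmvk*, *Nsdhl*, *Ebp* and *Fads1* stayed higher and *Elovl6* lower in all 12 fits that left out 1 library.

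**Figure D2:**
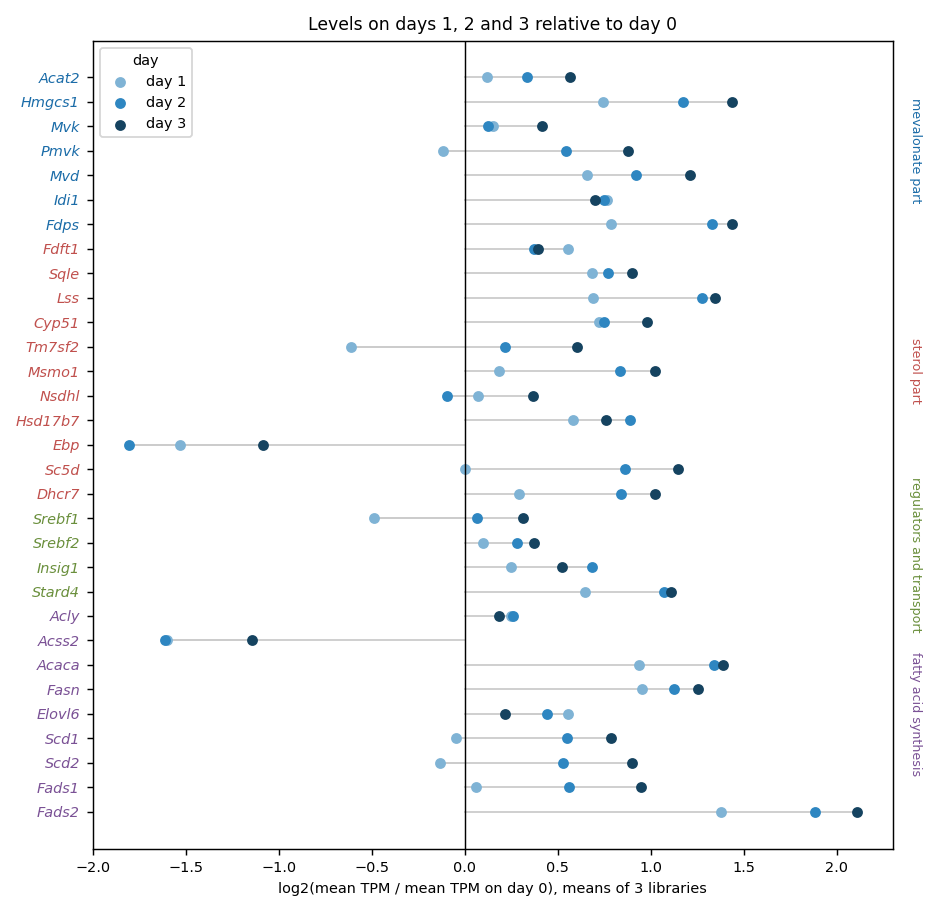
Level of each of the 31 genes on days 1, 2 and 3 as log2 of its mean TPM over its mean TPM on day 0 (horizontal axis, means of 3 libraries), with genes in rows grouped by role and dots coloured by day. Nearly all day 3 points lie right of 0, and the 2 genes whose 3 points lie far left of 0 are *Ebp* and *Acss2*.

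In the mevalonate part, all 7 enzymes were higher on day 3 than on day 0, along different courses. *Hmgcs1*, the cytosolic HMG-CoA synthase that makes the precursor of mevalonate, was at 215, 240.5 and 209 TPM on day 0, 362, 395 and 353 on day 1, 479, 531 and 486 on day 2 and 653, 579 and 565 on day 3. Its 4 days did not overlap, and day 3 stood above day 0 by a log2 change of 1.35 ± 0.07 (adjusted p = 7.09e-12). *Fdps*, which makes farnesyl diphosphate, was at 227, 226 and 221 TPM on day 0, 405, 392 and 365 on day 1, 557, 525 and 609.5 on day 2 and 657, 611 and 555 on day 3. Days 2 and 3 of *Fdps* overlapped, and that step did not pass the test (log2 change 0.07 ± 0.07, adjusted p = 0.492), while day 3 against day 0 gave a log2 change of 1.35 ± 0.07 (adjusted p = 3.51e-12). These 2 were the most abundant of the 31 transcripts on day 3, at means of 608 ± 51 and 599 ± 47 TPM, a difference within their SDs.

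*Idi1*, the isomerase that makes dimethylallyl diphosphate, took another course. Its level was 113, 121 and 116 TPM on day 0, 199.7, 208 and 187 on day 1, 190.3, 215 and 183 on day 2 and 181, 186 and 201 on day 3. The whole rise fell on day 1 (log2 change 0.84 ± 0.07, adjusted p = 4.15e-09), and the later days overlapped. *Pmvk*, the phosphomevalonate kinase, started a day later. It was at 73.0, 68.9 and 67.5 TPM on day 0, 62.2, 67.0 and 64.1 on day 1, 99.3, 98.8 and 107 on day 2 and 135, 127 and 123 on day 3, with a log2 change of 0.54 ± 0.07 (adjusted p = 1.64e-06) from day 1 to day 2. Of the other 3, *Mvd* (mevalonate diphosphate decarboxylase) rose by a log2 change of 1.12 ± 0.08 (adjusted p = 1.66e-10) from day 0 to day 3, *Acat2* (acetyl-CoA acetyltransferase) by a log2 change of 0.48 ± 0.06 (adjusted p = 7.11e-07) and *Mvk* (mevalonate kinase) by a log2 change of 0.33 ± 0.09 (adjusted p = 0.00241). At the first step, the call of *Mvk* was lost in 5 fits that left out 1 library (adjusted p up to 0.184, without day 1 library 2) and that of *Acat2* in 1 (adjusted p = 0.0606, without day 1 library 2). The limma fit on log2(TPM + 1) called 17 genes higher at that step in place of 21, since *Mvk* (adjusted p = 0.157), *Acat2* (0.0571), *Msmo1* (0.0605) and *Srebf2* (0.195) did not pass. *Mvk* also fell short with upper-quartile scaling, and *Insig1* in a fit of the 2 days alone (adjusted p = 0.0547).

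In the sterol part, 10 of 11 enzymes were higher on day 3 than on day 0, by log2 fold changes between 0.28 (*Nsdhl*, a sterol dehydrogenase) and 1.25 (*Lss*, lanosterol synthase, which closes the ring). *Sqle*, the squalene epoxidase, was at 113, 115 and 104 TPM on day 0, 170.2, 186 and 177 on day 1, 182, 198 and 186 on day 2 and 225, 205 and 189 on day 3. Day 0 lay apart below the later days, of which each overlapped the next, and the first step gave a log2 change of 0.75 ± 0.07 (adjusted p = 2.51e-08). *Cyp51*, the lanosterol demethylase, and *Fdft1*, squalene synthase, rose at the same step (log2 change 0.79 ± 0.06, adjusted p = 2.23e-09 and log2 change 0.63 ± 0.07, adjusted p = 4.69e-07). *Fdft1* then fell by 0.30 on the log2 scale on day 2 (± 0.07, adjusted p = 0.00136).

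Several sterol enzymes rose on day 2. *Sc5d*, the lathosterol desaturase near the end of the pathway, was at 23.2, 23.3 and 18.9 TPM on day 0, 21.0, 23.9 and 20.8 on day 1, 36.9, 40.6 and 41.4 on day 2 and 52.8, 45.7 and 46.7 on day 3. Days 0 and 1 overlapped, and day 2 stood above both (log2 change 0.74 ± 0.09, adjusted p = 1.4e-06 against day 1). *Tm7sf2*, a sterol reductase, was at 25.1, 24.0 and 17.3 TPM on day 0, 15.1, 11.9 and 16.5 on day 1, 25.5, 20.6 and 30.9 on day 2 and 38.6, 33.9 and 28.5 on day 3. It fell first and then rose (log2 change -0.55 ± 0.18, adjusted p = 0.0135 on day 1, log2 change 0.71 ± 0.17, adjusted p = 0.00217 on day 2), and its libraries spread widely for their level. The fall was not called without day 0 library 1 (adjusted p = 0.0602), day 0 library 2 (0.0567) or day 1 library 2 (0.0692). *Msmo1*, a methylsterol monooxygenase, whose call on day 1 was lost in 2 fits that left out 1 library, rose by a log2 change of 0.54 ± 0.08 (adjusted p = 1.33e-05) on day 2 and *Dhcr7*, the last reductase, by a log2 change of 0.43 ± 0.08 (adjusted p = 0.000263), after a rise on day 1 (log2 change 0.36 ± 0.09, adjusted p = 0.00141). *Hsd17b7*, the sterol ketoreductase with the lowest level of the 31 genes on day 0, rose by a log2 change of 0.65 ± 0.09 (adjusted p = 4.21e-06) on day 1.

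*Nsdhl* and *Ebp* fell on day 2, as *Fdft1* did, and then rose on day 3. *Nsdhl* was at 47.6, 46.3 and 39.4 TPM on day 0, 48.6, 48.4 and 42.7 on day 1, 39.7, 43.3 and 41.9 on day 2 and 55.9, 56.7 and 59.1 on day 3, with no call on day 1, a log2 change of -0.28 ± 0.08 (adjusted p = 0.00437) on day 2, which did not pass with limma on log2(TPM + 1) (adjusted p = 0.0854), and a log2 change of 0.42 ± 0.08 (adjusted p = 0.000537) on day 3. *Ebp*, the sterol isomerase, was at 29.6, 27.7 and 34.2 TPM on day 0, 11.6, 9.06 and 10.9 on day 1, 8.61, 8.77 and 8.78 on day 2 and 13.3, 13.4 and 16.5 on day 3. It fell by 1.46 on the log2 scale on day 1 (± 0.12, adjusted p = 3.99e-09), fell again on day 2 (log2 change -0.39 ± 0.14, adjusted p = 0.019, not called without day 1 library 1 or in 2 of 7 other settings, with adjusted p up to 0.0662 in these), regained a log2 change of 0.67 ± 0.13 (adjusted p = 0.000873) on day 3, and remained 1.17 below day 0 (± 0.12, adjusted p = 2.93e-08). Every library of days 1 to 3 was under every library of day 0.

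Between day 0 and day 3, the genes of the 2 SREBPs changed less than most of the enzymes. *Srebf2*, whose product chiefly drives sterol genes, was at 152, 153 and 159 TPM on day 0, 160.1, 162 and 175 on day 1, 183, 175 and 206 on day 2 and 211, 192 and 197 on day 3. Day 3 lay above day 0 by a log2 change of 0.29 ± 0.06 (adjusted p = 0.000294), and the single steps were at most 0.17. The first of them was not called without day 0 library 1, day 0 library 2 or day 1 library 3 (adjusted p 0.0764, 0.0582 and 0.0881). *Srebf1*, whose product chiefly drives fatty acid genes, was at 35.7, 39.9 and 41.4 TPM on day 0, 27.2, 28.1 and 28.1 on day 1, 39.7, 36.4 and 46.3 on day 2 and 45.2, 48.6 and 51.3 on day 3. It fell by 0.42 on the log2 scale on day 1 (± 0.08, adjusted p = 0.000107), when *Fasn* and *Acaca* rose, and came back on day 2 (log2 change 0.44 ± 0.08, adjusted p = 6.63e-05). On day 3 it was 0.22 above day 0 on the log2 scale. These are transcript levels, and cleavage of the proteins was not measured here.

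*Insig1*, a target and a brake of SREBPs, was at 98.6, 129.9 and 102 TPM on day 0, 127, 147 and 118 on day 1, 174, 175 and 181 on day 2 and 162, 162 and 152 on day 3. Days 0 and 1 overlapped, day 2 stood highest, and day 3 exceeded day 0 by a log2 change of 0.44 ± 0.10 (adjusted p = 0.000745). The first step of *Insig1* (log2 change 0.32 ± 0.10, adjusted p = 0.00968) was not called without day 0 library 1, day 0 library 3 or day 1 library 2 (adjusted p 0.0523, 0.0516 and 0.0594). *Stard4*, a carrier of cholesterol between membranes, rose by a log2 change of 1.02 ± 0.07 (adjusted p = 1.45e-10) from day 0 to day 3.

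**Figure D3:**
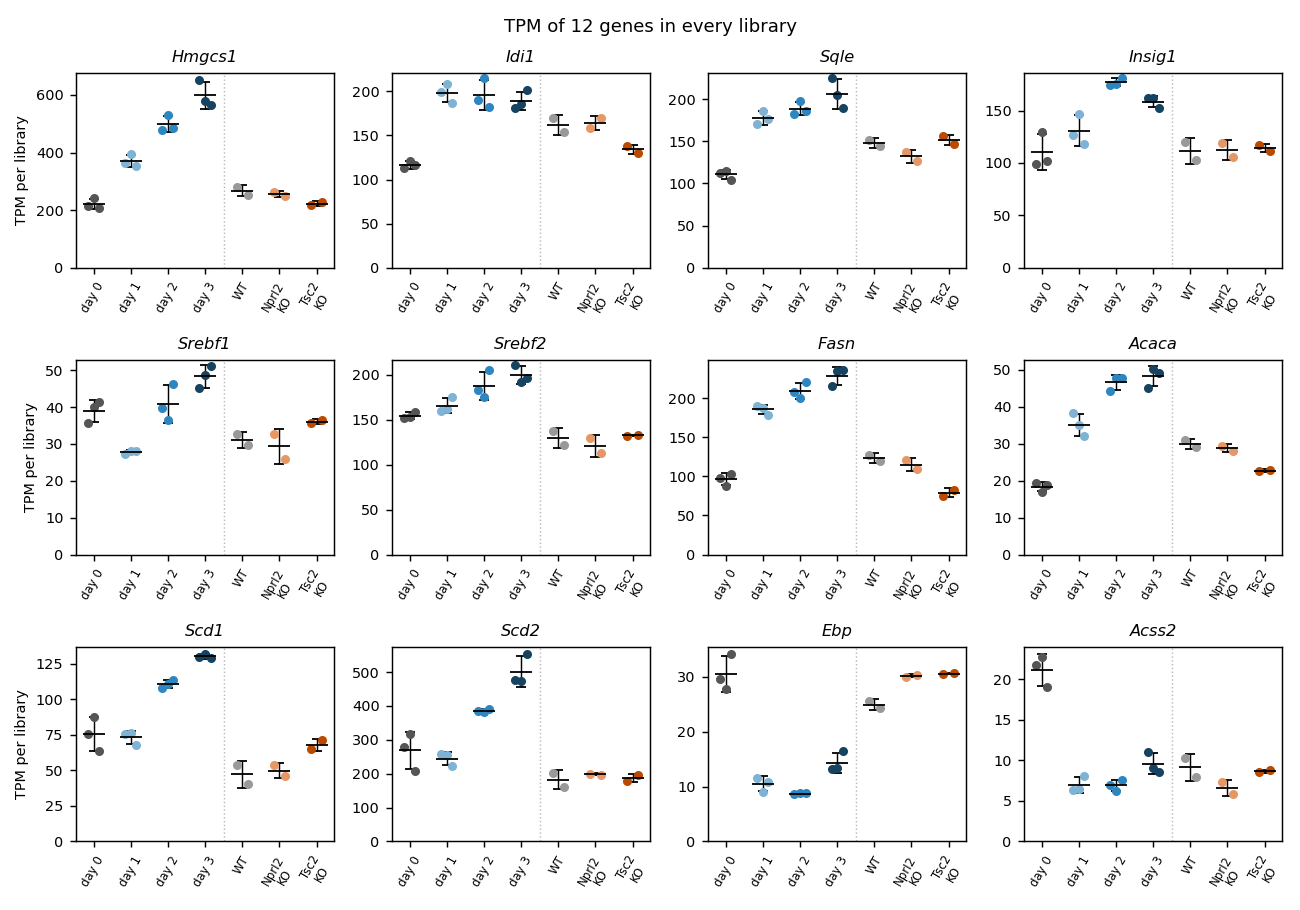
TPM (vertical axis, each starting at 0) of 12 genes in every library, with time-course days left and GFP+ genotypes right of the dotted line (WT is wild-type). Dots are libraries, horizontal marks are means and whiskers are SDs (n = 3 a day, n = 2 a genotype). *Hmgcs1* climbs from 222 to 599 TPM, *Ebp* and *Acss2* drop after day 0, and *Fasn* and *Acaca* are lowest among the genotypes in *Tsc2* KO.

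In fatty acid synthesis, *Fasn* and *Acaca* rose within a day. *Fasn*, fatty acid synthase, was at 98.2, 87.5 and 102 TPM on day 0, 190.4, 187 and 179 on day 1, 207, 200.4 and 221 on day 2 and 215, 234 and 236 on day 3. The first step was a log2 change of 1.02 ± 0.06 (adjusted p = 5.11e-11), without overlap, and the later steps did not pass the test. *Acaca*, the acetyl-CoA carboxylase that makes malonyl-CoA, was at 19.2, 17.0 and 18.9 TPM on day 0, 38.1, 35.1 and 32.1 on day 1, 44.2, 47.6 and 47.7 on day 2 and 45.1, 50.2 and 49.1 on day 3. It rose on day 1 (log2 change 1.01 ± 0.07, adjusted p = 5.87e-10) and again on day 2 (log2 change 0.29 ± 0.07, adjusted p = 0.00139), and the libraries of days 2 and 3 overlapped.

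The desaturases followed 2 courses. *Fads2*, the delta-6 desaturase of polyunsaturated fatty acids, had the largest rise of the 31 genes, from 56.7, 57.6 and 51.6 TPM on day 0 to 145, 153 and 133 on day 1, 204, 198 and 210.5 on day 2 and 235, 232 and 247 on day 3. Its days did not overlap, and day 3 exceeded day 0 by a log2 change of 2.02 ± 0.07 (adjusted p = 2.22e-15), a fold of 4.05. *Fads1*, the delta-5 desaturase, stayed level on day 1 and then rose, at 47.6, 50.5 and 42.5 TPM on day 0, 48.3, 50.3 and 47.9 on day 1, 66.0, 65.9 and 75.5 on day 2 and 94.5, 86.1 and 90.5 on day 3 (log2 change 0.34 ± 0.07, adjusted p = 0.000787 for the last step).

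The stearoyl-CoA desaturases, which make monounsaturated fatty acids, shared the later course. *Scd1* was at 75.7, 87.8 and 63.3 TPM on day 0, 75.2, 76.5 and 67.6 on day 1, 108, 110.4 and 113 on day 2 and 129, 132 and 129 on day 3. *Scd2* was at 280.0, 316 and 209 TPM on day 0, 257, 255 and 222 on day 1, 385, 382 and 392 on day 2 and 476, 472 and 554 on day 3. Days 0 and 1 overlapped for both, with the widest spread on day 0, and day 2 stood above day 1 by a log2 change of 0.48 ± 0.09 (adjusted p = 0.000107) for *Scd1* and a log2 change of 0.54 ± 0.12 (adjusted p = 0.00209) for *Scd2*. Both lie on chromosome 19 and are close relatives, so reads that fit either were divided by the authors' software. Their relatives *Scd3* and *Scd4* were at most at 2.04 and 0.364 TPM in any library. *Acat2* has such a relative in *Acat3*, at most at 3.29 TPM. The ends of *Fdft1*, *Srebf1*, *Tm7sf2* and *Acaca* overlap those of *Ctsb*, *Rai1*, *Vps51* and *Tada2a*, and how strand was used in counting is not given in the sources used here, so these values are uncertain to that extent.

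*Acss2*, which makes acetyl-CoA from acetate, and *Acly*, which makes it from citrate, supply both branches. *Acss2* was at 21.7, 22.7 and 19.0 TPM on day 0, 6.30, 6.43 and 8.12 on day 1, 6.90, 6.25 and 7.61 on day 2 and 11.0, 9.05 and 8.59 on day 3. It fell by 1.54 on the log2 scale on day 1 (± 0.12, adjusted p = 2.52e-09), the largest fall of the 31 genes at that step, and rose by a log2 change of 0.43 ± 0.13 (adjusted p = 0.0181) on day 3, still under every library of day 0. That rise was not called without day 2 library 2 (adjusted p = 0.0906) or day 3 library 1 (0.112). *Acly* rose by a log2 change of 0.32 ± 0.06 (adjusted p = 6.27e-05) on day 1 and stood between 275 and 282 TPM on day 3, against 228 to 260 TPM on day 0. *Elovl6*, the elongase of palmitate, rose by a log2 change of 0.62 ± 0.06 (adjusted p = 1.66e-08) on day 1 and then fell by 0.23 and 0.27 on the log2 scale at the next 2 steps (adjusted p = 0.00181 and 0.00159), the first of which did not pass with limma on log2(TPM + 1) (adjusted p = 0.101).

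Marker genes moved over the same days. The summed level of 10 mESC markers fell from between 8430 and 8644 TPM on day 0 to between 2458 and 2890 TPM on day 3, and that of 4 formative and later epiblast markers rose from between 103 and 129 TPM on day 0 to between 1209 and 1496 TPM on day 3. Markers of feeder fibroblasts (8 genes) summed to between 9.33 and 17.2 TPM on day 0 and between 35.0 and 43.4 TPM on day 3, and those of endoderm (7 genes) to at most 12.9 TPM on any day. From day 0 to day 3, 8 mESC markers were lower and 2 higher, all 4 formative markers were higher, 4 of 7 tested feeder markers were higher and 3 lower, and 1 endoderm marker was higher and 5 lower. *Lum* was at 0 in every library of days 0, 2 and 3, and *Col1a1*, the most abundant feeder marker in the GFP+ libraries, was at most at 6.59 TPM on day 0 and 1.25 TPM on day 3. The part of these cells in the results was not tested. Total estimated counts lay between 8610357 and 15305054 over the 18 libraries, which limits counting error only.

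Other lipid genes were counted in the same way. Of 48 further genes in 7 lists (SREBP processing, liver X receptors and their targets, isoprenoid branches, citrate and NADPH supply with other elongases, glycerolipid synthesis, fatty acid oxidation, and sterol storage and release), 47 were tested in the time course. Of these, 15 were higher and 16 lower on day 3 than on day 0, with a median log2 fold change of -0.01. These shares are close to those over all genes tested, 35.0% higher and 35.9% lower. Of 4 genes that process SREBPs, *Scap*, their escort, was higher (log2 change 0.36 ± 0.09, adjusted p = 0.00208) and *Mbtps2*, a protease that cuts them, lower (log2 change -0.42 ± 0.08, adjusted p = 0.000116). In fatty acid oxidation, 6 of 9 tested genes were lower and 2 higher, and the difference from all genes was not tested. *Cpt1a*, which admits fatty acids to mitochondria, was at 56.8, 52.3 and 53.3 TPM on day 0 and 2.72, 2.44 and 2.26 on day 3 (log2 change -4.53 ± 0.09, adjusted p = 4.89e-18), and the carrier *Slc25a20* fell by 2.68 on the log2 scale (± 0.11, adjusted p = 7.27e-14). *Soat1*, which esterifies cholesterol for storage, went from 8.58, 10.5 and 7.75 TPM to 73.2, 76.9 and 93.4 TPM (log2 change 3.09 ± 0.10, adjusted p = 1.06e-14). *Abca1*, a cholesterol exporter and liver X receptor target, fell from 2.79, 2.46 and 2.91 TPM to 0.112, 0.199 and 0.10 TPM (log2 change -4.37 ± 0.21, adjusted p = 9.4e-13). Of the 6 genes in the list of these receptors and their targets, 4 were lower and 2 higher. Of the remaining lists, 1 isoprenoid gene was higher and 2 lower of 8, 5 genes of citrate, NADPH and elongation were higher and 1 lower of 9, 2 glycerolipid genes were higher and 1 lower of 7, and 2 storage genes were higher and 1 lower of 4.

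In GFP+ cells, the targeted genes were checked first. *Nprl2* was at 16.1 and 17.0 TPM in wild-type and 8.09 and 8.65 TPM in *Nprl2* KO (log2 change -0.96 ± 0.18, adjusted p = 0.00888), and *Tsc2* at 45.0 and 44.9 TPM in wild-type and 18.8 and 20.3 TPM in *Tsc2* KO (log2 change -1.23 ± 0.08, adjusted p = 9.74e-07). Each targeted gene was lower in its own KO without overlap, and the remaining transcript includes what the deletion of 1 exon leaves.

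In *Nprl2* KO mESCs, by the same edgeR test over 13725 genes, none of the 31 genes was higher, where 2.78% of all genes tested were higher, and 1 was lower, where 3.66% were lower, shares close to the background. At an unadjusted p under 0.05, 2 were higher and 2 lower, and DESeq2 called none in either direction. The median log2 fold change was 0.02 (all genes, 0.00), and the 95% intervals of the 30 genes not called reached from -0.80 to 0.81. *Acat2* was at 136 and 130.1 TPM in wild-type and 103 and 110.1 TPM in *Nprl2* KO, without overlap (log2 change -0.29 ± 0.07, adjusted p = 0.037). This call was lost with DESeq2, in a fit of the 2 genotypes alone and without any 1 of the 4 libraries compared, with adjusted p between 0.0745 and 0.157 in the last case. *Fads2* was at 77.1 and 55.0 TPM in wild-type and 104 and 77.5 TPM in *Nprl2* KO (log2 change 0.46 ± 0.18, adjusted p = 0.194), without overlap and short of the threshold except in a fit with no filter on low counts (adjusted p = 0.000402). In *Tsc2* KO it was at 87.5 and 97.0 TPM (log2 change 0.43 ± 0.18, adjusted p = 0.116), and it passed there in 3 of 7 other settings (adjusted p from 0.000408 to 0.127 over them) and in 1 of 6 fits that left out 1 library. *Acss2* was at 10.3 and 7.98 TPM in wild-type and 7.30 and 5.87 TPM in *Nprl2* KO, also without overlap, and passed in no setting (log2 change -0.45 ± 0.18, adjusted p = 0.16).

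*Tsc2* KO mESCs differed from wild-type in 11 of the 31 genes, and not in 1 direction. Higher were 5 (all genes, 14.9%) and lower 6 (all genes, 14.2%), shares close to the background. The median log2 fold change was -0.00 (all genes, 0.00). The lower genes were 2 enzymes of fatty acid synthesis, *Fasn* and *Acaca*, and 4 sterol genes, *Acat2*, *Hmgcs1*, *Idi1* and *Lss*. The higher genes were the desaturases *Scd1* and *Fads1* and the later sterol enzymes *Msmo1*, *Hsd17b7* and *Sc5d*. The regulators *Srebf1*, *Srebf2*, *Insig1* and *Stard4* did not pass in either KO.

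For the regulators the levels were close. *Srebf1* was at 32.7 and 29.7 TPM in wild-type, 32.8 and 26.1 TPM in *Nprl2* KO and 35.6 and 36.5 TPM in *Tsc2* KO, where both libraries lay above the other 4 (log2 change 0.17 ± 0.11, adjusted p = 0.247 against wild-type). *Srebf2* was at 137 and 122, 129.9 and 113 and 132 and 133 TPM in the same order, with overlap, and *Insig1* at 120.4 and 103, 119 and 106 and 117 and 112 TPM, also with overlap. The 95% intervals of the *Tsc2* KO differences ran from -0.15 to 0.15 for *Srebf2* and from -0.17 to 0.16 for *Insig1* on the log2 scale.

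*Fasn* was at 128 and 119 TPM in wild-type, 121 and 109 TPM in *Nprl2* KO and 75.1 and 83.0 TPM in *Tsc2* KO. Both *Tsc2* KO libraries lay under the other 4, with a log2 change of -0.67 ± 0.07 (adjusted p = 3.17e-05) against wild-type and a log2 change of -0.62 ± 0.07 (adjusted p = 3.94e-05) against *Nprl2* KO. *Acaca* was at 30.9 and 29.0 TPM in wild-type, 29.4 and 27.9 TPM in *Nprl2* KO and 22.5 and 22.9 TPM in *Tsc2* KO, again with *Tsc2* KO lowest (log2 change -0.43 ± 0.07, adjusted p = 0.00064 against wild-type). Of the 6 lower genes, these 2 were called without any 1 library and under all 7 other settings.

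The lower sterol genes moved less. *Hmgcs1* was at 281 and 254 TPM in wild-type, 264 and 248 TPM in *Nprl2* KO and 217 and 229 TPM in *Tsc2* KO (log2 change -0.30 ± 0.07, adjusted p = 0.00522 against wild-type). *Idi1* was at 169.7 and 154 TPM in wild-type, 159 and 169.6 TPM in *Nprl2* KO and 138 and 131 TPM in *Tsc2* KO (log2 change -0.30 ± 0.07, adjusted p = 0.00713 against wild-type). For both, *Tsc2* KO was under both other genotypes. *Lss* was lower by 0.30 on the log2 scale (± 0.09, adjusted p = 0.0244) and *Acat2* by 0.23 (± 0.07, adjusted p = 0.0308). The call of *Acat2* was lost without any 1 of the 4 libraries compared (adjusted p up to 0.196) and in 2 of 7 other settings, and that of *Lss* in 3 fits that left out 1 library (adjusted p up to 0.140) and with limma on log2(TPM + 1) (adjusted p = 0.107). Without wild-type library 1, 2 genes were lower in place of 6, and without *Tsc2* KO library 2, 3 were. *Sqle* was at 152 and 144 TPM in wild-type and 156 and 147 TPM in *Tsc2* KO, and its 95% interval of difference, from -0.14 to 0.14 on the log2 scale, held 0.

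Among the higher genes, *Fads1* was at 37.9 and 31.9 TPM in wild-type, 35.9 and 33.9 TPM in *Nprl2* KO and 48.9 and 54.8 TPM in *Tsc2* KO, with *Tsc2* KO above both (log2 change 0.53 ± 0.10, adjusted p = 0.00128 against wild-type). *Scd1* was at 53.6 and 40.6 TPM in wild-type, 53.5 and 46.2 TPM in *Nprl2* KO and 65.0 and 71.0 TPM in *Tsc2* KO (log2 change 0.49 ± 0.13, adjusted p = 0.0213 against wild-type), and *Scd2* at 202 and 162, 200.4 and 197 and 179 and 195 TPM in the same order. Every KO library of *Scd2* lay within the range of wild-type, and its difference in *Tsc2* KO had a 95% interval from -0.17 to 0.17 on the log2 scale. *Msmo1* was higher by a log2 change of 0.29 ± 0.08 (adjusted p = 0.0176). Without *Tsc2* KO library 2, 3 genes were higher in place of 5, with *Scd1* at adjusted p = 0.108 and *Msmo1* at 0.122, and without wild-type library 2, 3 were, with *Msmo1* at 0.138 and *Sc5d* at 0.0562.

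*Sc5d* was at 22.7 and 22.8 TPM in wild-type, 22.0 and 18.5 TPM in *Nprl2* KO and 32.7 and 29.8 TPM in *Tsc2* KO (log2 change 0.42 ± 0.12, adjusted p = 0.0191 against wild-type), a call that was also lost without wild-type library 1 (adjusted p = 0.0986) or *Tsc2* KO library 1 (0.132). *Hsd17b7* was at 11.8 and 10.3 TPM in wild-type, 10.8 and 9.55 TPM in *Nprl2* KO and 21.0 and 17.8 TPM in *Tsc2* KO (log2 change 0.77 ± 0.12, adjusted p = 0.00068 against wild-type), the largest difference of the 31 genes. *Tsc2* KO was above both other genotypes for each. *Hsd17b7* is the only one of the 31 on chromosome 1, and the median log2 fold change of the 747 genes tested there was 0.37 in *Tsc2* KO and -0.01 in *Nprl2* KO, while on the other chromosomes that hold these genes the medians in *Tsc2* KO lay between -0.07 and 0.02. The part of that shift in the value of *Hsd17b7* was not tested.

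**Figure D4:**
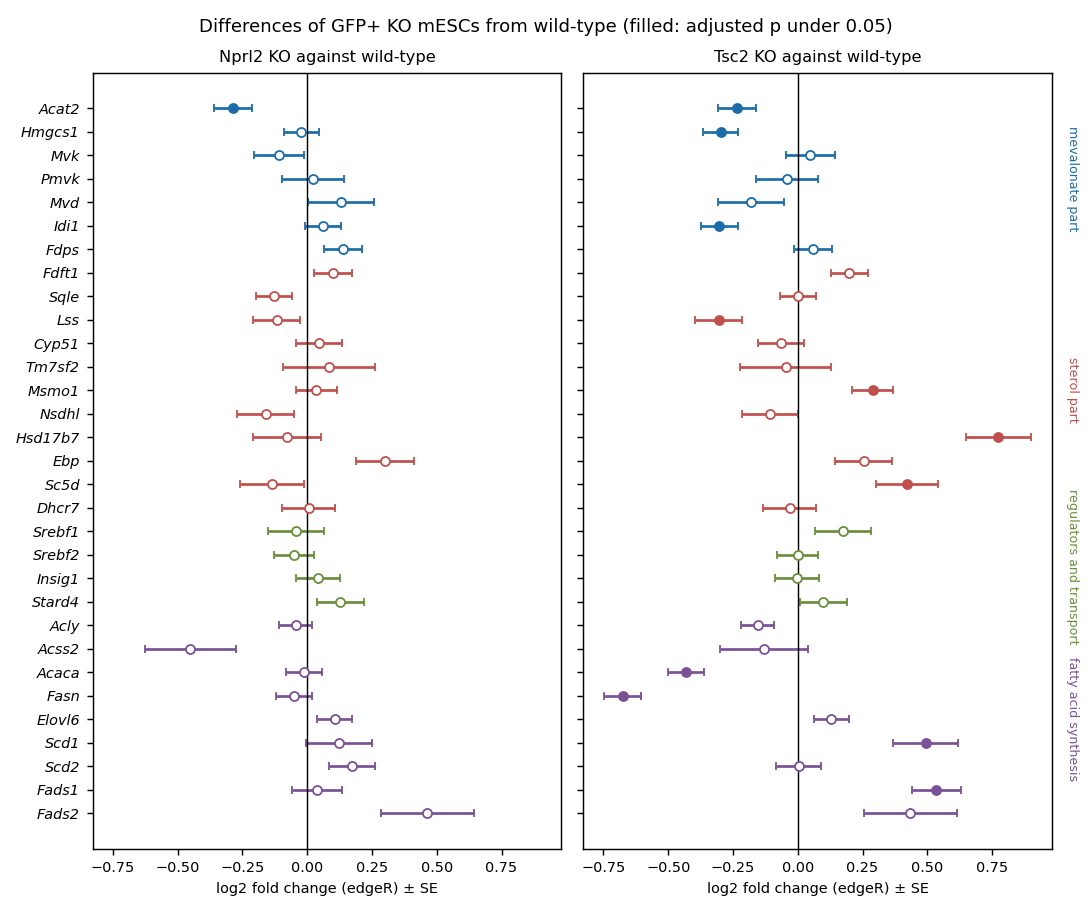
Log2 fold change against wild-type from edgeR (horizontal axis) with its SE for each of the 31 genes in rows, in *Nprl2* KO (left) and *Tsc2* KO (right), n = 2 libraries a genotype, coloured by role. Filled circles passed an adjusted p of 0.05. *Nprl2* KO has 1 filled circle (*Acat2*), and *Tsc2* KO has 6 left and 5 right of 0, from -0.67 (*Fasn*) to 0.77 (*Hsd17b7*).

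Both KOs were compared with the same wild-type libraries, so they were also compared directly. *Tsc2* KO was higher than *Nprl2* KO in 4 genes (all genes, 17.5%) and lower in 4 (all genes, 16.6%), shares not above the background. *Msmo1*, *Hsd17b7*, *Sc5d* and *Fads1* were the higher genes, and *Hmgcs1*, *Idi1*, *Acaca* and *Fasn* the lower. *Acat2*, whose calls against wild-type were each lost without any 1 of the 4 libraries compared, did not pass between the KOs (log2 change 0.05 ± 0.07, adjusted p = 0.61), and *Scd1* was just short of the threshold (log2 change 0.37 ± 0.12, adjusted p = 0.0522), passing in 5 of 7 other settings (adjusted p from 8.68e-05 to 0.0577 over them) and in 3 of 6 fits that left out 1 library. The call of *Msmo1* was lost in 3 fits that left out 1 library and that of *Hmgcs1* in 2, with adjusted p up to 0.152 and 0.0521.

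Markers differed between the genotypes as well. The 10 mESC markers summed to between 6988 and 7590 TPM in wild-type, 6320 and 7156 TPM in *Nprl2* KO, and 8505 and 8827 TPM in *Tsc2* KO. The 4 formative and later epiblast markers summed to between 386 and 462 TPM, 532 and 624 TPM, and 110 and 115 TPM in the same order. Feeder fibroblast markers summed to between 112 and 159 TPM in wild-type, 117 and 122 TPM in *Nprl2* KO, and 38.7 and 141 TPM in *Tsc2* KO, whose 2 libraries therefore differed. Endoderm markers summed to between 2.85 and 10.1 TPM. In *Tsc2* KO, 5 mESC markers were higher and 3 lower, 3 formative markers were lower, and of 6 tested feeder and 6 tested endoderm markers none passed. Their part in the values above was not tested.

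Of the 48 further lipid genes, all tested here, 4 were higher and 3 lower in *Nprl2* KO, and 14 were higher and 4 lower in *Tsc2* KO, with medians of 0.03 and 0.20. Over all genes tested, 2.78% were higher and 3.66% lower in *Nprl2* KO, and 14.9% higher and 14.2% lower in *Tsc2* KO. The medians over all genes were 0.00 in each, and the difference of these lists from all genes was not tested. In *Nprl2* KO, *Slc25a1*, the citrate carrier, was lower (log2 change -0.52 ± 0.08, adjusted p = 0.00205) and *Scap* higher (log2 change 0.54 ± 0.10, adjusted p = 0.00902). In *Tsc2* KO, *Dgat2*, which completes triglycerides, was at 13.6 and 13.5 TPM against 4.37 and 3.74 TPM in wild-type (log2 change 1.69 ± 0.18, adjusted p = 3.07e-05), and *Me1*, a source of NADPH, was higher by a log2 change of 0.76 ± 0.08 (adjusted p = 3.98e-05). *Cpt1a* was lower in *Nprl2* KO (log2 change -0.81 ± 0.17, adjusted p = 0.0299) and higher in *Tsc2* KO (log2 change 1.00 ± 0.16, adjusted p = 0.00234), at 20.9 and 26.1 TPM in wild-type, 11.7 and 14.1 TPM in *Nprl2* KO and 41.8 and 54.4 TPM in *Tsc2* KO, 3 ranges that did not overlap. *Insig2* and *Soat1*, both higher in *Tsc2* KO (log2 fold changes of 0.69 and 0.49), lie on chromosome 1.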

How the data were processed

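RNA-seq of 18 libraries was used. The authors quantified reads with kallisto (version 0.42.1 and build mm10 per the submitters' processing notes) and deposited estimated counts per transcript. TPM values per gene were deposited by the authors as well, scaled within each library and not between libraries. Files of the authors' DESeq2 comparisons hold fold changes and p-values and were not used.

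Estimated counts were summed per gene and rounded. Of 34079 transcripts, 33713 were named from a RefSeq table (GRCm38.p6) and 192 from GENCODE M21, 174 were left out (1.65 to 3.57% of a library's counts lay outside named genes), and 24296 genes resulted. Library totals were 8610357 to 15305054, so that 3 counts equal 0.196 to 0.348 CPM, and intervals cover spread between libraries only. TPM summed from transcripts matched the deposited gene values for 99.8% of 23159 shared genes in each library (tolerance 1% plus 0.01 TPM). Replicates differed beyond counting noise, and none was a duplicate.

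edgeR 4.0.16 (R 4.3.3) fitted the quasi-likelihood model with TMM scaling and the default filter, once over the 12 time-course libraries (14382 genes) and once over the 6 GFP+ libraries (13725 genes). p-values were adjusted over all genes tested, and 95% intervals were taken as the log2 fold change ± 1.96 SE. This normal multiplier takes no account of the limited degrees of freedom, so the intervals are approximate and, if anything, too narrow. The code was tested on simulated data. Alternatives were DESeq2 1.42.0, upper-quartile scaling, no filter, at least 10 counts in every library, library number as a block, the compared groups alone, limma 3.58.1 on log2(TPM + 1), and fits without each library in turn.

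The 31 genes, the 48 further lipid genes and the marker lists were chosen with earlier results of these data known. Every one of the 31 was named, with values per library for 10 fixed genes and the 4 with the largest called change in each comparison, and at most 2 of each further list were named in a comparison.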

Additional observations from a re-analysis of the deposited data

Results flagged for a closer look

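In 8 of the 31 genes, the effects of the 2 KOs differed in the direct edgeR comparison of *Tsc2* KO with *Nprl2* KO (2 libraries each). Of these, 4 were higher and 4 lower, where 17.5% of all genes tested were higher and 16.6% lower, so these shares were not above the background. The log2 difference was -0.28 for *Hmgcs1*, -0.36 for *Idi1*, -0.42 for *Acaca* and -0.62 for *Fasn*. It was 0.25 for *Msmo1*, 0.50 for *Fads1*, 0.56 for *Sc5d* and 0.85 for *Hsd17b7*. Beside the value of *Hsd17b7* stands a median of 0.36 over the 747 genes tested on chromosome 1 in the same comparison. Groups of 2 and 3 libraries were too small to look for single outlying libraries.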

How the results depend on the processing

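Over 7 other settings and all fits that left out 1 library, 3565 log2 fold changes of the 31 genes were recomputed. Of these, 3391 kept their side of the threshold, 111 fell short of it, 63 newly passed, and 0 called values changed sign. Values called in neither fit count as kept even where their sign changed. From day 1 to day 2, lower genes numbered 1 with limma in place of 4. From day 2 to day 3, 2 were lower in place of 1 with the replicate block and with the compared groups alone, *Insig1* being added. In *Nprl2* KO, 0 were lower with DESeq2 and with the compared groups alone, 1 was higher with no filter, and of the further lipid genes 12 were called with the replicate block and 3 with limma, in place of 7. Leaving out 1 library gave 5 to 15 higher and 1 to 2 lower genes from day 2 to day 3 (2 lower without day 0 library 2), 0 to 1 lower in *Nprl2* KO, and for *Tsc2* KO 3 to 5 higher and 2 to 6 lower. Of the further lipid genes it left 1 to 6 called in *Nprl2* KO (4 without wild-type library 1, 3 without wild-type library 2 or *Nprl2* KO library 1, 1 without *Nprl2* KO library 2) and 8 to 20 in *Tsc2* KO (8 without *Tsc2* KO library 2). The cause of these changes was not tested. Where a genotype kept 1 library, that library was assumed to vary like the other groups.

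Libraries share only a number: same-numbered libraries correlated between -0.11 and 0.13 in the time course (18 pairs, 2 over 0.1) and between 0.08 and 0.16 in GFP+ cells (6 pairs, 4 over 0.1), where differently numbered libraries correlated between -0.16 and -0.08. With 2 libraries a genotype, their deviations from the group mean are opposites. Each differently numbered value in GFP+ cells is therefore a same-numbered value with its sign reversed, and gives no separate comparison. The 2 same-numbered values of any 2 genotypes are equal for the same reason. No label says that a number marks a shared origin, so the same-numbered values are at most a hint and not a pairing by design. With the replicate block, 21 genes were higher and 4 lower on day 1, 16 and 4 on day 2, 14 and 2 on day 3, 27 and 2 from day 0 to day 3, 0 and 1 for *Nprl2* KO, 7 and 7 for *Tsc2* KO, and 6 and 6 between the KOs. Depth and 2 libraries a genotype limit the KO comparisons: 95% intervals of genes not called in *Tsc2* KO reached from -0.46 to 0.78.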

Other observations

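For 6 of the 31 genes, 2 transcripts were listed, and kallisto divided the reads between them. *Acly* did not pass between day 0 and day 3 as a gene in the main edgeR fit, but its transcripts moved apart. The transcript NM_001199296 was at 116, 91.7 and 113 TPM on day 0 and 158, 155 and 159 TPM on day 3, and its share of the gene lay between 40.2 and 46.0% on day 0 and between 55.0 and 57.5% on day 3. The transcript NM_134037 was at 143, 137 and 133 TPM on day 0 and 117, 127 and 118 TPM on day 3. The ranges of neither transcript overlapped between the 2 days, and the difference was not tested. For *Hmgcs1*, the share of NM_145942 ranged from 22.9 to 47.0% among the day 0 libraries alone and from 24.6 to 31.0% on day 3, so no shift between its transcripts was read.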
